A study of Mus musculus with 33 samples.

Results

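The genes described here are transcripts of liver endothelial cells, the cells that line the blood vessels of the liver, as they were measured in sorted Kupffer cells (KCs), the resident macrophages (macs) of the liver sinusoids. They were chosen by gene symbol from a list of 36 endothelial genes, of which 35 had a row among the 24421 genes of the count tables. The antisense transcript Fcgr2b-as was not matched and was not analysed here. RNA sequencing covered 18 KC samples and 15 samples of alveolar macs (AMs) of the lung, all from C57Bl/6 mice of 6 to 8 weeks, in which both Zeb2 alleles were floxed (Zeb2fl/fl). CRE- KCs (n = 6) and CRE- AMs (n = 5) came from Zeb2fl/fl littermates without a cre transgene. CRE+ KCs came from Clec4f-crexZeb2fl/fl mice and were sorted as a Tim4+ and a Tim4- fraction (n = 6 each). CRE+ AMs came from Itgax-crexZeb2fl/fl mice and were sorted as a CD11b- and a CD11b+ fraction (n = 5 each). Clec4f-cre is also active in a minor B cell population, and Itgax-cre acts in other CD11c+ cells as well. Each sorted CRE+ fraction can hold cells with incomplete recombination, since the paper found KCs and AMs heterozygous for the Zeb2 deletion in CRE+ mice. It also defines KCs without Siglecf and Timd4 as putative monocyte-derived cells, so that the origin of the cells can differ between the Tim4 fractions. Each sample is a bulk pool of sorted cells from digested tissue. Fewer endothelial cells in a sort, less endothelial RNA per cell and a change in the sorted macs themselves therefore cannot be told apart.

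Liver sinusoidal endothelial cells form a fenestrated lining without a closed basement membrane, and KCs sit on and partly within it. These endothelial cells clear macromolecules through scavenger receptors such as stabilin-2, keep their identity through GATA4, and supply Wnt ligands and R-spondin to the hepatocytes around the central vein. Several of the listed genes, such as Kdr, Tek, Tie1, Erg and Robo4, are textbook endothelial genes, while others, such as Nrp1, Pecam1 and Lyve1, are also known from subsets of macs.

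Depth was between 9837240 and 24332306 reads on genes per sample, and the shallowest library was replicate 1 of the Tim4- KCs. Summed over 10 KC marker genes, the KC groups had medians of 41410 (CRE-), 30100 (Tim4+) and 25240 (Tim4-) counts per 1000000 reads on genes (CPM), against 1459 to 1755 in the AM groups. Timd4, which encodes Tim4, was at 0.233 to 8.34 CPM in Tim4- and 286 to 454 CPM in Tim4+ samples. Zeb2 had medians of 287 CPM in CRE- KCs and 169.5 CPM in each CRE+ KC fraction, and of 209 CPM in CRE- AMs, 111 CPM in CD11b- and 55.3 CPM in CD11b+ AMs, and reads outside the floxed part still count towards it. Replicates 5 and 6 of every KC group had reads on Y-linked genes and none on Xist, while replicates 1 to 4 had Xist. All 15 AM samples had 228 to 643 reads on Xist and at most 1 on Y-linked genes, so that the KC groups held samples of both sexes and the AM groups of females only.

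In KCs the endothelial genes were far from rare transcripts. Their summed level in CRE- KCs was 3517, 4477, 5631, 3443, 2721 and 1627 CPM in replicates 1 to 6. In Tim4+ CRE+ KCs it was 4396, 9315, 6855, 3801, 3281 and 3587 CPM. Tim4- CRE+ KCs had 1272, 1530, 1260, 1342, 1260 and 1162 CPM. The CRE- and Tim4+ samples therefore overlapped widely, replicate 2 of the Tim4+ samples was the highest of all, and every Tim4- sample lay below every CRE- and Tim4+ sample. In AMs the same genes summed to only 265 to 351 CPM in the CRE- and CD11b- samples and to 568 to 635 CPM in the CD11b+ samples. Of the 35 genes, 33 had a mean of at least 5 CPM over the KC samples. Rspo3 was between 1 and 5 CPM, and Sparcl1, a matricellular gene of other vascular beds, was under 1 CPM with a highest value of 0.717 CPM.

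**Figure D1:**
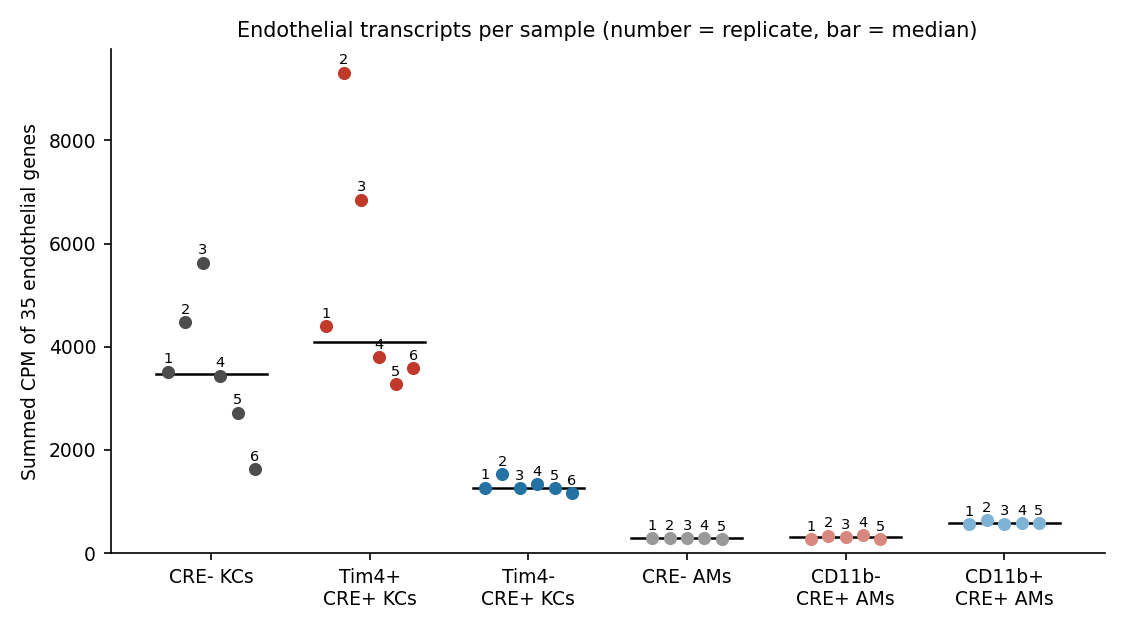
Summed CPM of the 35 endothelial genes (y axis) in each of the 33 samples by group (x axis), with points numbered by replicate and bars at the group medians. The CRE- and Tim4+ KC samples spread from 1627 to 9315 CPM, while the 6 Tim4- KC samples sit between 1162 and 1530 CPM and the AM samples between 265 and 635 CPM.

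Levels can be compared between genes after division by the length of their annotated exons. On this scale (reads per 1000 bases of exon and 1000000 reads on genes, RPKM) the same 4 genes led in all KC groups. In CRE- KCs Igfbp7, which encodes a secreted protein of the vascular matrix, had a median of 163 RPKM and the water channel gene Aqp1 one of 159 RPKM. Ehd3, an endocytic recycling gene, followed at 56.8 RPKM, and Cyp4b1, a cytochrome P450 gene, at 46.6 RPKM. Igfbp7 and Aqp1 did not differ beyond their spread, since their ranges were 57.6 to 271 and 40.8 to 293 RPKM. At the other end, Erg (1.89 RPKM), Flt1 (0.782 RPKM) and Rspo3 (0.395 RPKM) were the lowest of the genes that could be tested. The values of Ramp2 hold a reservation, because 33.4% of its exon bases are shared with Vps25 on the same strand, and Igfbp7 shares 7.03% with Polr2b on the opposite strand.

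The question put to these genes was whether they vary together between replicates, as RNA of attached endothelial cells would. Within CRE- and Tim4+ KCs they did so closely. With each value taken as log2 CPM less its group mean, the median Pearson r over the 561 pairs of the 34 genes tested was 0.778 over all 18 KC samples, against -0.001 over all pairs of the 12500 genes tested. An r above 0.5 was seen in 85.6% of these pairs and in 5.23% of all gene pairs. Within the 6 CRE- samples the median r was 0.938 and within the 6 Tim4+ samples it was 0.942. Within the 6 Tim4- samples, where the summed level spread least, it was 0.163. These are descriptions over samples that share libraries, so that no p is given. Leaving out any single sample gave medians from 0.731 to 0.822, and leaving out the 2 samples farthest from the median of the list (replicate 6 of the CRE- and replicate 2 of the Tim4+ KCs) gave 0.662.

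The same libraries were high or low for nearly every gene. Among CRE- KCs, replicate 3 was the highest sample for 31 of the 34 genes and replicate 6 the lowest for 32, whereas over all genes tested these samples were highest or lowest for 17.9% and 18.8%. Among Tim4+ KCs, replicate 2 was highest for 32 of the 34 genes and for 18.3% of all genes. The low end was shared there, since replicates 4, 5 and 6 lay close together and were lowest for 10, 17 and 5 genes. In the Tim4- KCs, replicate 2 was highest for 16 genes and replicate 1, the shallowest library, lowest for 12. The samples of male mice, replicates 5 and 6, were the lowest CRE- samples and among the 3 lowest Tim4+ samples in the summed level, and the part of sex in this was not tested. Without replicates 5 and 6 the median r over the remaining 12 samples was 0.731.

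**Figure D2:**
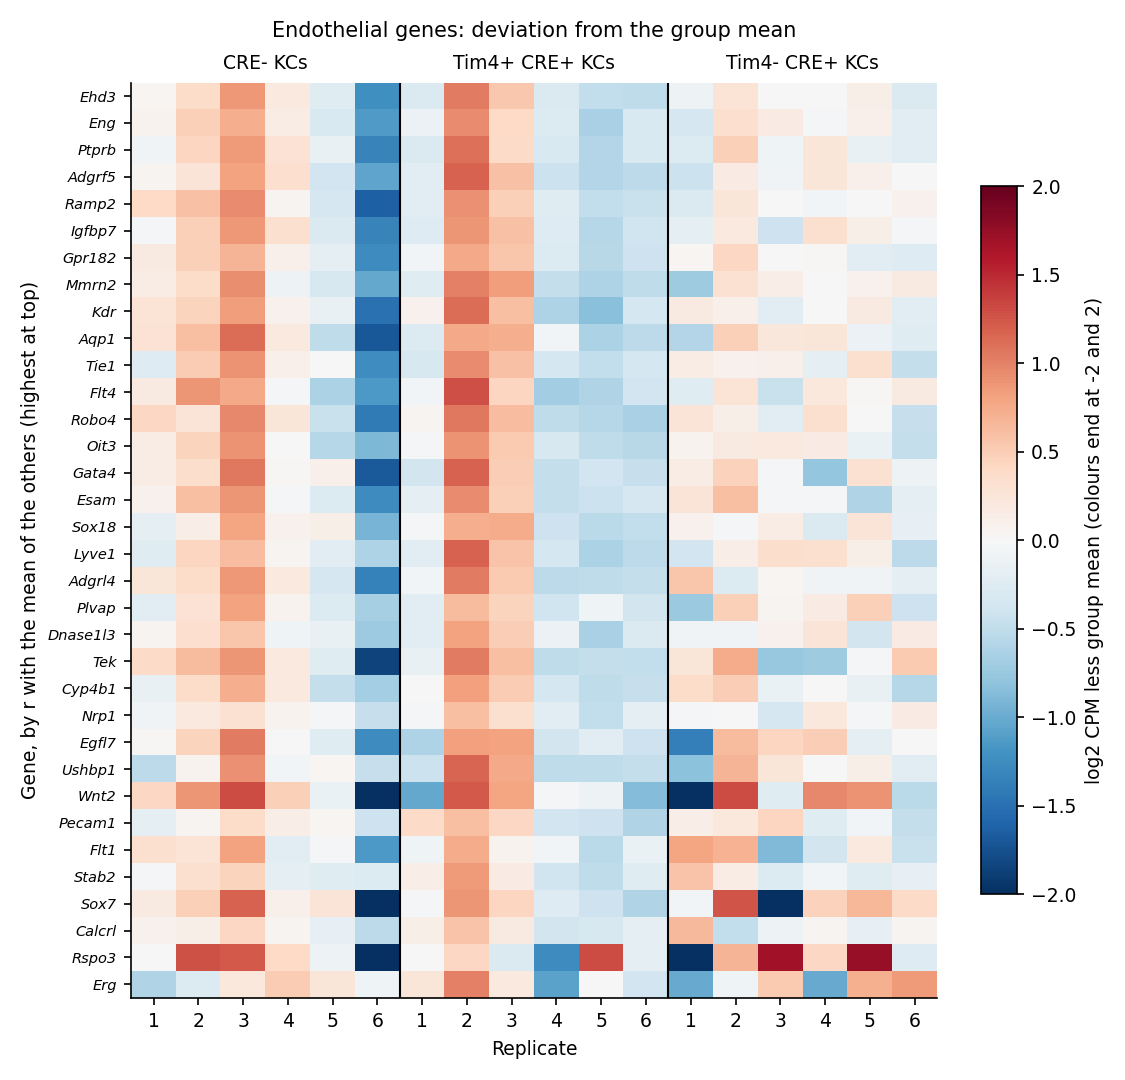
Deviation of log2 CPM from the group mean (colour) for the 34 tested endothelial genes (rows, ordered by their r with the mean of the other genes) in the 18 KC samples (columns, replicate numbers by group). Whole columns share a colour in CRE- and Tim4+ KCs, with replicate 3 of the CRE- and replicate 2 of the Tim4+ KCs high and replicate 6 of the CRE- KCs low, while the Tim4- columns are pale and mixed.

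In CRE- and Tim4+ KCs the 33 genes of at least 5 CPM also moved in the same direction, by factors that differed between genes. From the lowest to the highest library the ratios ran from 1.23 (Erg) to 19.1 (Wnt2) in CRE- KCs. In Tim4+ KCs they ran from 1.65 (Plvap) to 3.88 (Kdr). In each group these libraries were picked by the mean of the listed genes, so that high ratios were favoured by the choice. Between replicates 3 and 6 of the CRE- KCs the median ratio over the 33 genes was 3.85, with quartiles of 2.65 and 4.92. Between replicates 2 and 5 of the Tim4+ KCs it was 2.66, with quartiles of 2.46 and 3.02. Over all genes tested, by which the libraries were not picked, the corresponding medians were 0.989 and 1.01. In Tim4- KCs, by contrast, the median ratio between replicates 2 and 1 was 1.30, with quartiles of 0.992 and 1.68 and a lowest value of 0.455 (Calcrl). Against the mean of the other endothelial genes over all 18 KC samples, the median r of a single gene was 0.878 and its median slope 1.02, with quartiles of 0.803 and 1.15. The value of r exceeded 0.8 for 27 of the 34 genes and 0.9 for 15. The closest to the mean of the others were Ehd3 (r = 0.985), Eng, the endoglin co-receptor for BMP ligands (0.976), Ptprb, the endothelial receptor phosphatase VE-PTP (0.970), Adgrf5 (0.963) and Ramp2 (0.962).

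Within the Tim4- KCs alone some genes went against the others, with an r of -0.921 for Calcrl, -0.768 for Adgrl4 and -0.337 for Stab2, where the same genes had 0.981, 0.988 and 0.802 in CRE- KCs.

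A few genes stood outside the common movement over all KC samples. Erg, an ETS transcription factor of endothelial cells, had the lowest r (0.322), and its ratio between replicates 3 and 6 of the CRE- KCs was 1.23. Rspo3 (r = 0.459) rested on few reads. Calcrl, Stab2, Nrp1 and Pecam1 followed the others with a flatter slope, of 0.383, 0.484, 0.465 and 0.501. Of these, Calcrl and Nrp1 had medians of 83.8 and 122 CPM in CRE- AMs, against 93.9 and 214 CPM in CRE- KCs. Stab2 was different, since it was listed at 0 in 3 of the 5 CRE- AM samples. Its level was 329, 426, 455, 281, 277 and 270.2 CPM in replicates 1 to 6 of the CRE- KCs, a ratio of 1.65 between replicates 3 and 6, where Kdr had one of 4.997 and Aqp1 one of 7.02. The steepest gene was Wnt2, with a slope of 2.05 and a ratio of 19.1 between the same libraries.

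Other gene lists show how selective the movement was. The mean of the endothelial genes had a median r of -0.157 with the 10 KC markers and of -0.058 with 12 hepatocyte genes. With 8 genes of stellate cells and fibroblasts it was 0.081, and with 5 platelet genes 0.054. None of the genes of these 4 lists reached an r of 0.8. Of 42 further endothelial genes, 14 did, with a median of 0.739 over the list. Not all of that list followed. Cdh5, the gene of the endothelial adherens junction protein VE-cadherin, had an r of 0.490, the mannose receptor gene Mrc1 0.107, Fli1 -0.034 and Cd34 -0.062.

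**Figure D3:**
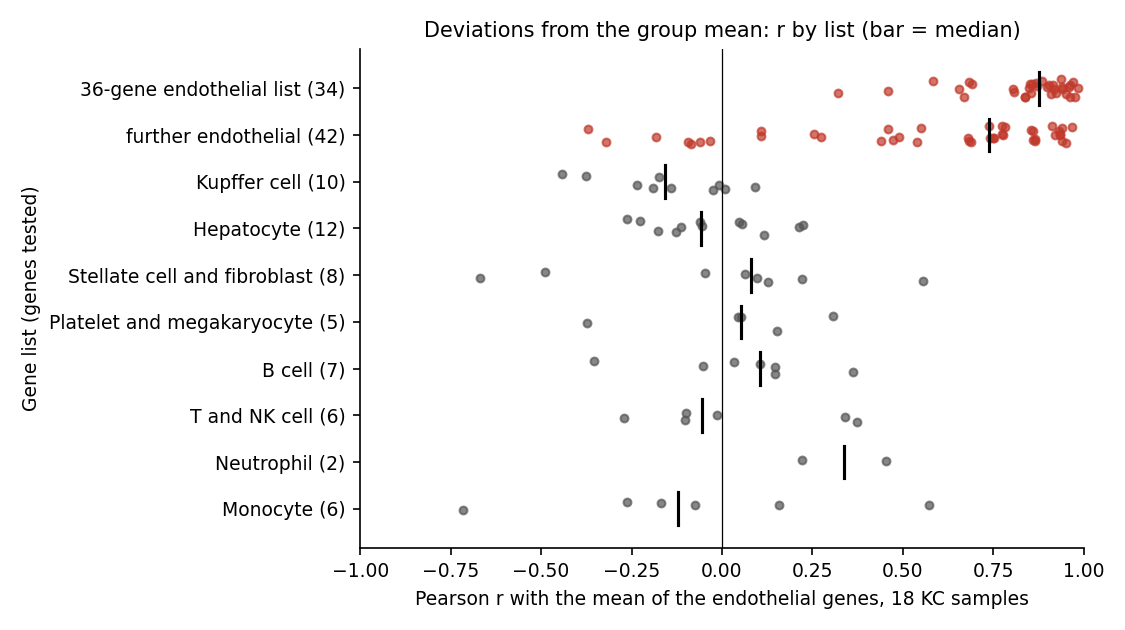
Pearson r of each gene with the mean of the endothelial genes over the 18 KC samples, each as log2 CPM less the group mean (x axis), by gene list (y axis, with the number of genes tested), bars at the medians. For the 36-gene list each gene is set against the mean of the others, and the endothelial lists sit at the right (medians 0.878 and 0.739) while the KC and hepatocyte lists sit around 0.

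Among genes outside the list with a mean of at least 1 CPM, 117 of 11483 had an r above 0.8 with the mean of the list and 38 above 0.9. The 10 closest were Bmp2 (r = 0.969), Tinagl1 (0.966), Pde2a (0.964), C1qtnf1, Ephb4, Tns2, Clec4g (0.951), Dpp4, Plxnc1 and Trp53i11 (0.941). Bmp2 encodes a ligand through which sinusoidal endothelial cells regulate iron, Ephb4 a venous ephrin receptor and Clec4g the sinusoidal lectin LSECtin. Dpp4, the peptidase gene, had nearly equal medians in CRE- (77.6 CPM) and Tim4- KCs (72.2 CPM), whereas Bmp2 was at 104 CPM and 32.6 CPM.

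The promoters of these genes were also searched for short motifs of endothelial transcription factors. A relation of the motifs to the joint movement was not tested. RefSeq promoter windows (GRCm38.p6) matched 20 of the 35 genes in 25 windows, and the 250 bases before each start were read on both strands. The ETS core AGGAAG was in 14 of the 25 windows (56.0%) and in 29.5% of all 32851 windows. By gene, 13 of the 20 had it, and genes with several windows weigh more in the share of windows. The 8-base FOX and ETS word AACAGGAA was in 3 of the 25 (12.0% against 2.25%), the SOX word AACAAT in 4 (16.0% against 9.42%) and the GATA word AGATAA in 1 (4.0% against 9.99%). A match of the 8-base word can overlap one of the ETS core. A match describes letters only and no binding. The windows of the 3 genes with a single window and the ETS core that followed the list most closely, Eng (chr2:32646345-32646594, + strand), Aqp1 (chr6:55336049-55336298, + strand) and Tie1 (chr4:118489850-118490099, - strand), are shown beside that of Stab2 (chr10:87007943-87008192, - strand), which followed it with a flatter slope. Capitals mark AGGAAG or its reverse complement.
Eng: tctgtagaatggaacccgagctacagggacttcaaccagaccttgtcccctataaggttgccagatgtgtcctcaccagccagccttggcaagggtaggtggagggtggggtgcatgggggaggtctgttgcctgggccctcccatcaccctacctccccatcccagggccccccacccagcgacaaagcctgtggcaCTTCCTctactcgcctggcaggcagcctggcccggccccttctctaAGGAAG
Aqp1: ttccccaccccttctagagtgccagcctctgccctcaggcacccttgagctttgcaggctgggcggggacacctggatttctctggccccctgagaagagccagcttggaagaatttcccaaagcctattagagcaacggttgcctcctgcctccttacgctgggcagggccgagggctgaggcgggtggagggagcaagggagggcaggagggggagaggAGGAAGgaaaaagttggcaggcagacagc
Tie1: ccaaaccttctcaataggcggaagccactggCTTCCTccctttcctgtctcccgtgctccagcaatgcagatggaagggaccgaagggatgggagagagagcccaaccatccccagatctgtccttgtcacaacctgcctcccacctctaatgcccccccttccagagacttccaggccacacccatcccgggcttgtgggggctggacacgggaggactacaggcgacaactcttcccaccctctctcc
Stab2: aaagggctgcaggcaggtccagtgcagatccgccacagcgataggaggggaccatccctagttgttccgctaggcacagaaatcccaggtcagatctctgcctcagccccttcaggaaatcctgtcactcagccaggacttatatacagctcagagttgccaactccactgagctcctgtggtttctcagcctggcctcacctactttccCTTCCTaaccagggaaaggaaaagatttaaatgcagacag
The core starts 52 and 6 bases before the start of Eng, 29 before that of Aqp1, 219 before that of Tie1 and 40 before that of Stab2.

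The first comparison asked whether the endothelial genes differed between Tim4+ cells of Clec4f-crexZeb2fl/fl mice and control KCs. None of the 34 genes passed the test. A gene was called when its Benjamini-Hochberg adjusted p over all genes tested was under 0.05 in edgeR's quasi-likelihood test and its absolute log2 fold change above 1, which 2.31% of the 12500 genes tested met here (1.94% higher and 0.376% lower). Without adjustment 19 of the 34 genes had a p under 0.05 in edgeR's test, a share that was not counted over all genes tested. DESeq2 and limma-voom also called 0. The fold changes leaned to one side, with 31 of 34 above 0 and a median of 0.61. Over all 12500 genes tested 6196 were above 0, with a median of -0.00. The listed genes varied together between libraries, so that their counts are not independent signs of a change. The largest were Gata4, the GATA factor of sinusoidal endothelium (0.86 ± 0.34, SE, adjusted p = 0.175), Oit3, an LSEC marker gene (0.79 ± 0.27, adjusted p = 0.0986) and Ramp2, which encodes the receptor partner of Calcrl (0.78 ± 0.30, adjusted p = 0.161). Oit3 was the closest to a call. It was called (1.01, adjusted p = 0.0255 in edgeR) when replicate 3 of the CRE- KCs was left out. That library had the highest summed level of the listed genes in its group. Stab2 (-0.07 ± 0.20) and Pecam1 (-0.01 ± 0.20) were near 0, and Rspo3 was at -0.65 ± 0.68.

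The Tim4- fraction was compared with CRE- KCs in the same fit. Here 28 of the 34 genes were lower and none was higher, where 8.82% of all genes tested were called, 5.39% lower and 3.43% higher. The median log2 fold change was -1.53, against -0.03 over all genes tested, and all 34 values were below 0. Against the Tim4+ fraction of the same genotype 32 of the 34 genes were lower, where 5.45% of all genes tested were called, 5.01% lower and 0.44% higher. The median was -2.12, against 0.01 over all genes tested. In this second comparison the samples of 32 genes did not overlap, while against CRE- KCs 10 did not. The low replicate 6 of the CRE- KCs reached into the Tim4- range for many genes. Non-overlap was not counted over all genes tested, so that both counts stand without a background. The 3 comparisons between KC groups share samples by pairs, and their values are given side by side. Within replicates 1 to 4 alone, chosen as a subset after the data were seen, 30 and 32 genes were lower against CRE- and Tim4+ KCs, and within replicates 5 and 6 alone 5 and 18 were, with medians of -0.84 and -1.64. The shares of all genes called within these subsets are not given here.

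Marker lists of other cell types, and of KCs themselves, also differed in these comparisons, which are levels in the sorted samples and not counts of cells. Hepatocyte genes were at 1458 to 2595 CPM (summed over 12 genes) in Tim4- KCs, 2311 to 3297 CPM in CRE- KCs and 1786 to 3294 CPM in Tim4+ KCs, and 1 of 12 was called lower in each of the Tim4- comparisons. These sums do not measure hepatocyte RNA alone, since the list summed to 3026 to 3614 CPM in CRE- AMs. Against CRE- AMs 11 of the 12 genes were higher in CRE- KCs, and 1 was not called, at a log2 fold change of -0.45. KC markers summed to 24110 to 26380 CPM in Tim4- KCs against 40580 to 43470 CPM in CRE- KCs, with 5 of 10 called lower against CRE- and 3 of 10 against Tim4+ KCs. The 10 markers include Timd4, whose product Tim4 was used for the sort, so that its low level in Tim4- KCs was set by the gate. Stellate cell and fibroblast genes were at 15.1 to 29.6 CPM in Tim4- against 24.99 to 38.7 CPM in CRE- KCs, with 0 of 8 called by edgeR. Monocyte genes, among them Chil3, which is also on the list of AM genes, were at 296 to 825 CPM against 181 to 327 CPM. Platelet genes were at 3.20 to 5.88 CPM in Tim4- and 6.51 to 12.6 CPM in Tim4+ KCs, without overlap and with 0 of 5 called by edgeR. Of 6 T and NK cell genes 0 were called in Tim4+ and 1 was higher in Tim4- KCs against CRE- KCs, with all 6 fold changes above 0 and medians of 1.47 and 1.83. Genes of AMs were at 2044 to 2889 CPM in Tim4+, 930 to 1262 CPM in Tim4- and 838 to 1696 CPM in CRE- KCs, and 4 of 8 were higher in each CRE+ fraction against CRE- KCs, with 1 lower in Tim4- KCs. The AM list includes Siglecf, whose product the paper reports on KCs that had deleted Zeb2. The part of these lists in the endothelial values was not tested.

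The receptors for VEGF and angiopoietins, which drive and stabilise endothelium, gave 6 of 7 genes lower against CRE- KCs and 7 of 7 against Tim4+ KCs. Kdr, which encodes the main VEGF receptor, was at 266.5, 302, 388, 222, 192.5 and 75.8 CPM in replicates 1 to 6 of the CRE- KCs and at 370.4, 782, 528, 225, 195 and 273 CPM in those of the Tim4+ KCs. In Tim4- KCs it was at 79.5, 77.3, 60.9, 70.8, 80.3 and 61.2 CPM. Apart from replicate 6 of the CRE- KCs all Tim4- samples were lower, with log2 fold changes of -1.74 ± 0.32 (SE, adjusted p = 0.000415) against CRE- and -2.42 ± 0.33 (adjusted p = 5.83e-05) against Tim4+ KCs. Flt4, the receptor for the lymphangiogenic ligand VEGF-C, had 39.5 to 169 CPM (median 93.4) in CRE-, 82.2 to 336 CPM (115) in Tim4+ and 21.9 to 36.6 CPM (31.9) in Tim4- KCs. Its samples did not overlap, at -1.72 ± 0.34 and -2.29 ± 0.35 against CRE- and Tim4+ KCs.

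The angiopoietin receptor gene Tek ranged from 11.6 to 78.4 CPM (median 51.6) in CRE-, from 45.8 to 140.0 CPM (53.1) in Tim4+ and from 7.32 to 21.04 CPM (13.4) in Tim4- KCs. Its partner Tie1 had 19.5 to 89.0 CPM (47.9), 53.6 to 150.3 CPM (59.7) and 12.8 to 22.1 CPM (19.0) in the same groups. Both were lower in Tim4- KCs, Tek by -1.87 ± 0.38 and Tie1 by -1.53 ± 0.30 on the log2 scale against CRE- KCs. Ptprb, whose product restrains the Tek receptor, had 47.1 to 219.7 CPM (130.2) in CRE- KCs, 122 to 404 CPM (148) in Tim4+ KCs and 27.8 to 47.9 CPM (31.2) in Tim4- KCs. At -1.94 ± 0.31 (adjusted p = 8.46e-05) it had the largest change of the receptors against CRE- KCs.

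Flt1, the VEGF decoy receptor gene, was low in KCs, at 4.27 to 16.9 CPM (median 10.6) in CRE-, 11.4 to 28.5 CPM (15.7) in Tim4+ and 2.18 to 6.91 CPM (3.85) in Tim4- samples, a log2 fold change of -1.25 ± 0.31 against CRE- KCs. Nrp1, the neuropilin co-receptor of VEGF and semaphorins, was the receptor gene that did not pass the fold threshold. It had 155 to 267 CPM (214) in CRE-, 199 to 437 CPM (261) in Tim4+ and 109 to 156 CPM (136) in Tim4- KCs. Its log2 fold change was -0.66 ± 0.15 (adjusted p = 0.00332) against CRE- and -1.04 ± 0.16 against Tim4+ KCs, and the latter call was lost under several alternatives. It was at -0.99 with replicate number as a block, at -0.89 without replicate 2 of the Tim4+ KCs and at -0.98 without replicate 3 of either fraction. With replicates 5 and 6 alone it was at -0.60 (adjusted p = 0.118 in edgeR).

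The scavenger receptor and sinusoidal marker genes were lower in 6 of 7 cases against CRE- and in 7 of 7 against Tim4+ KCs. Stab2, the hyaluronan scavenger receptor gene, was at 125, 96.8, 70.9, 82.0, 72.3 and 76.9 CPM in replicates 1 to 6 of the Tim4- KCs and at 342.5, 586, 353, 236, 220.4 and 263 CPM in those of the Tim4+ KCs. All Tim4- values were below all others, with log2 fold changes of -1.96 ± 0.21 (adjusted p = 7.37e-07) against CRE- and -1.89 ± 0.21 (adjusted p = 1.12e-05) against Tim4+ KCs. It thus had the lowest adjusted p of the list against CRE- KCs, with one of the flattest slopes between replicates. Ehd3 had 144 to 629 CPM (median 373) in CRE-, 355 to 1078 CPM (415) in Tim4+ and 103 to 154 CPM (124) in Tim4- KCs. The change was -1.58 ± 0.29 and -2.11 ± 0.29 against CRE- and Tim4+ KCs.

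Gpr182, an endothelial chemokine scavenger, ranged from 57.1 to 223.5 CPM (152) in CRE-, from 161 to 415 CPM (211) in Tim4+ and from 48.7 to 78.9 CPM (58.5) in Tim4- KCs. Oit3 ranged from 51.0 to 181 CPM (102), from 117 to 331 CPM (152.5) and from 27.9 to 44.2 CPM (41.2), with no overlap of the Tim4- samples. Their changes against CRE- KCs were -1.34 ± 0.26 and -1.43 ± 0.28. Cyp4b1 had 63.4 to 171 CPM (105), 112 to 292 CPM (141) and 25.3 to 53.5 CPM (35.8) in CRE-, Tim4+ and Tim4- KCs, and its change against CRE- KCs was -1.50 ± 0.26.

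Lyve1, a hyaluronan receptor gene of sinusoidal and lymphatic endothelium, was at 17.7 to 42.5 CPM (median 25.7) in CRE-, 27.2 to 98.9 CPM (34.3) in Tim4+ and 8.35 to 15.2 CPM (13.1) in Tim4- KCs, without overlap, at -1.22 ± 0.29 against CRE- and -1.90 ± 0.29 against Tim4+ KCs. Dnase1l3, a secreted nuclease gene that is also known from macs, had 57.5 to 144 CPM (96.1), 85.2 to 240.2 CPM (118) and 40.9 to 62.5 CPM (53.4). At -0.92 ± 0.22 (adjusted p = 0.00393) it stayed under the fold threshold against CRE- KCs, and at -1.38 ± 0.22 it was called against Tim4+ KCs.

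**Figure D4:**
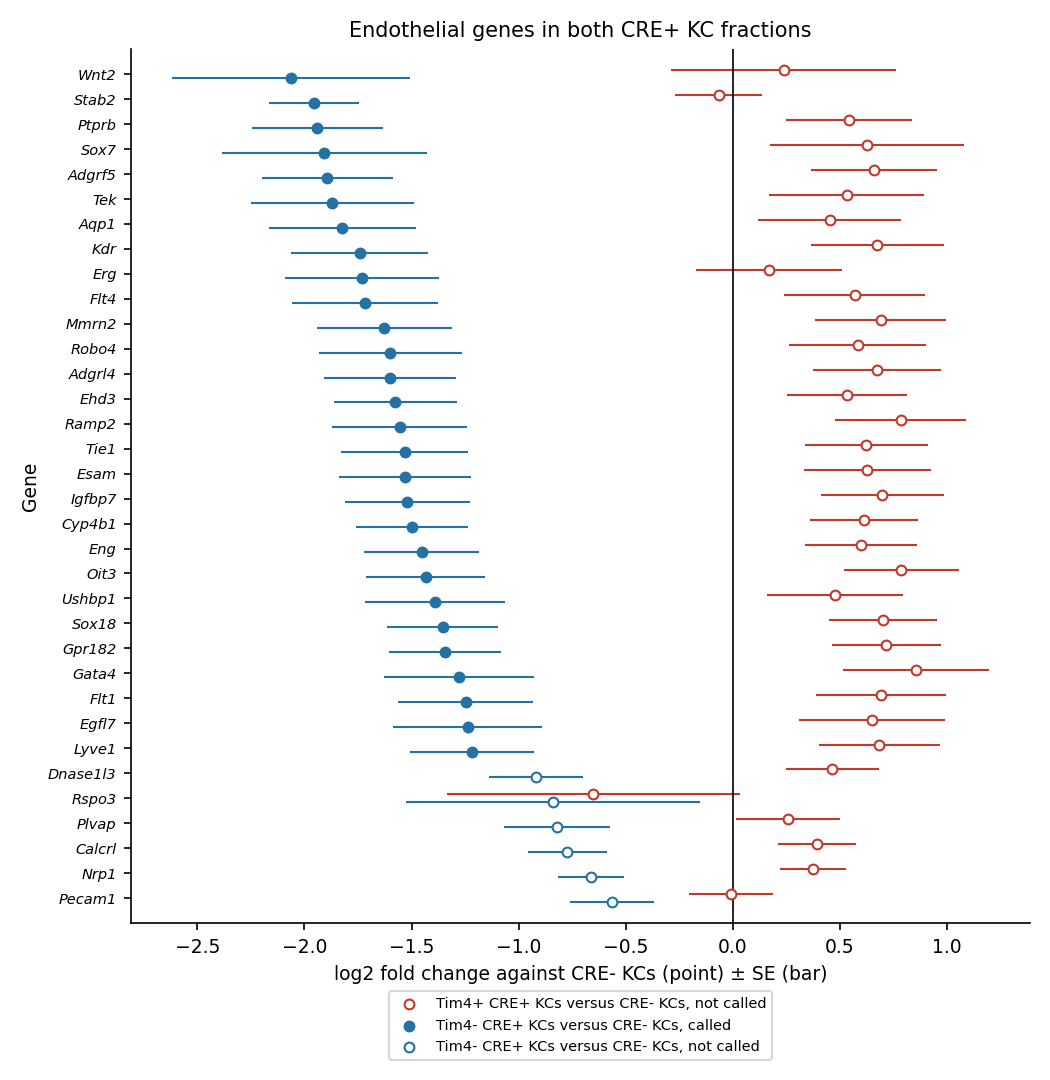
Log2 fold change against CRE- KCs (x axis, points, with bars of 1 SE) of the 34 tested endothelial genes (y axis) in Tim4+ (red) and Tim4- (blue) CRE+ KCs, filled where called. Most red points lie between 0 and 1 and none is filled, while all blue points lie below 0 and 28 are filled, and both sets share the same CRE- samples.

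Of the adhesion, junction and matrix genes, 6 of 8 were lower against CRE- KCs and 7 of 8 against Tim4+ KCs. Igfbp7 was at 177, 255, 328, 218, 143 and 69.7 CPM in replicates 1 to 6 of the CRE- KCs and at 255.5, 583, 459.5, 254, 205.5 and 229 CPM in those of the Tim4+ KCs. In Tim4- KCs it was at 59.5, 78.7, 50.9, 84.5, 73.0 and 66.6 CPM. Again the overlap with CRE- KCs came from their replicate 6, and the changes were -1.52 ± 0.29 (adjusted p = 0.000621) and -2.22 ± 0.30 (adjusted p = 5.24e-05) against CRE- and Tim4+ KCs. Eng followed the same order, with 65.1 to 241 CPM (median 156) in CRE-, 143 to 446 CPM (197) in Tim4+ and 44.2 to 72.1 CPM (57.1) in Tim4- KCs, at -1.45 ± 0.27 and -2.05 ± 0.27.

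Esam, a tight junction adhesion molecule gene, had 19.4 to 88.0 CPM (48.1) in CRE-, 54.9 to 154 CPM (64.2) in Tim4+ and 11.49 to 27.1 CPM (17.0) in Tim4- KCs, at -1.53 ± 0.31 against CRE- KCs. Robo4, an endothelial guidance receptor gene, had 13.2 to 70.4 CPM (42.5), 35.3 to 119.5 CPM (48.2) and 9.57 to 16.1 CPM (13.7), at -1.60 ± 0.33. Mmrn2, an extracellular partner of CD93, had 18.1 to 72.0 CPM (38.0), 39.0 to 124 CPM (46.7) and 7.73 to 15.9 CPM (13.8), at -1.63 ± 0.32. Of these genes only Mmrn2 had Tim4- samples that lay wholly below the CRE- samples. The secreted vessel factor gene Egfl7 was at 17.6 to 88.5 CPM (42.8), 45.5 to 128 CPM (56.9) and 7.01 to 28.8 CPM (21.5) in CRE-, Tim4+ and Tim4- KCs. Its change against CRE- KCs was -1.24 ± 0.35 (adjusted p = 0.0124), and it fell under the fold threshold (-0.97) without replicate 3 of the CRE- KCs.

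Pecam1 and Plvap were the weakest of this group. Pecam1, the adhesion molecule gene shared by endothelium, platelets and many leukocytes, had 94.7 to 166 CPM (median 133) in CRE-, 82.6 to 196 CPM (129) in Tim4+ and 62.2 to 115 CPM (87.9) in Tim4- KCs. It was not called in any KC comparison, at -0.56 ± 0.20 (adjusted p = 0.0397) against CRE- and -0.56 ± 0.20 (adjusted p = 0.0732) against Tim4+ KCs. Plvap, which encodes the protein of endothelial diaphragms, had 25.4 to 71.5 CPM (38.6), 38.1 to 80.6 CPM (45.6) and 13.6 to 32.7 CPM (24.8). At -0.82 ± 0.25 (adjusted p = 0.0186) it was not called against CRE- KCs, and at -1.08 ± 0.25 it was called against Tim4+ KCs, a call that was lost (-0.93 to -0.99) without replicate 2 or 3 of the Tim4+ or replicate 1 or 6 of the Tim4- KCs.

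The peptide and adhesion G protein-coupled receptors and the water channel gave 4 of 5 genes lower against CRE- KCs and 5 of 5 against Tim4+ KCs. Aqp1 was at 441, 555, 769.9, 395, 246 and 107 CPM in replicates 1 to 6 of the CRE- KCs and at 444, 943, 894, 519, 350.2 and 374 CPM in those of the Tim4+ KCs. In Tim4- KCs it was at 75.5, 162, 133, 133, 104 and 97.3 CPM. The log2 fold change against CRE- KCs was -1.82 ± 0.35 (adjusted p = 0.000547), with overlap only at replicate 6 of the CRE- KCs. Adgrf5, an adhesion receptor gene of microvessels, had 38.4 to 143.5 CPM (92.7) in CRE-, 84.0 to 297 CPM (101) in Tim4+ and 17.1 to 27.3 CPM (24.2) in Tim4- KCs. At -1.89 ± 0.31 and -2.55 ± 0.31 its samples did not overlap in either comparison, and the second value was the largest of all the genes.

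Adgrl4, another endothelial adhesion receptor gene, had 31.1 to 149 CPM (93.9), 91.7 to 284 CPM (112) and 24.4 to 42.3 CPM (27.6) in CRE-, Tim4+ and Tim4- KCs, at -1.60 ± 0.31 against CRE- KCs. The adrenomedullin receptor is made of the products of Calcrl and Ramp2. Ramp2 had 6.54 to 40.1 CPM (24.5), 27.8 to 76.4 CPM (33.2) and 6.51 to 9.63 CPM (8.004), at -1.56 ± 0.32 against CRE- KCs. Calcrl had 61.5 to 121 CPM (93.9), 91.4 to 184 CPM (117) and 37.6 to 80.6 CPM (51.1). Its change of -0.77 ± 0.18 (adjusted p = 0.00398) was not called against CRE- KCs, and that of -1.16 ± 0.19 was called against Tim4+ KCs.

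All 4 transcription factor genes were lower in Tim4- KCs in both comparisons. Gata4 had 9.72 to 66.5 CPM (median 34.8) in CRE-, 43.4 to 142 CPM (46.8) in Tim4+ and 8.36 to 20.2 CPM (14.96) in Tim4- KCs, at -1.28 ± 0.35 (adjusted p = 0.0103) against CRE- KCs. Sox18 had 14.3 to 48.5 CPM (29.1), 31.2 to 78.0 CPM (39.2) and 9.23 to 13.6 CPM (11.7), without overlap, at -1.35 ± 0.26. Sox7, of the same SOXF family of vascular factors, was lower in level, with 1.74 to 18.8 CPM (9.57), 9.61 to 28.1 CPM (13.2) and 0.288 to 4.97 CPM (2.71), at -1.91 ± 0.48. Erg had 4.198 to 8.67 CPM (6.56), 3.20 to 14.1 CPM (7.28) and 0.813 to 3.08 CPM (2.02). Like Stab2 it had a flat slope between replicates (0.404), and the Tim4- samples lay below the others without overlap, at -1.73 ± 0.36 (adjusted p = 0.00122) against CRE- and -1.90 ± 0.36 against Tim4+ KCs.

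Of the Wnt pathway ligands of central vein endothelium, 1 of 2 was lower in both comparisons. Wnt2 had 2.66 to 52.3 CPM (median 28.4) in CRE-, 14.2 to 70.2 CPM (27.7) in Tim4+ and 0.915 to 12.5 CPM (6.72) in Tim4- KCs. At -2.06 ± 0.56 (adjusted p = 0.00937) its fold change against CRE- KCs was the largest of the list and its error the largest among the called genes. Rspo3, an R-spondin that strengthens Wnt signalling, was at 0.131 to 2.67 CPM (1.22), 0.325 to 2.04 CPM (0.760) and 0 to 1.55 CPM (0.669), where 3 reads correspond to 0.123 to 0.305 CPM. At -0.84 ± 0.69 (adjusted p = 0.399) a difference was not detectable at this depth. Ushbp1, a harmonin-binding protein gene, had 10.9 to 29.0 CPM (15.04), 14.2 to 47.5 CPM (14.9) and 3.25 to 9.54 CPM (6.05), without overlap, at -1.39 ± 0.33.

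Of 42 further endothelial genes, 23 were lower and 1 was higher in Tim4- KCs against CRE- KCs, where 5.39% of all genes tested were lower and 3.43% higher. Against Tim4+ KCs 25 were lower and 1 higher, where 5.01% of all genes tested were lower and 0.44% higher. Clec4g was at a mean of 233 CPM in CRE- and 85.5 CPM in Tim4- KCs (-1.44 ± 0.31). Stab1, the second stabilin gene, was called against Tim4+ KCs (-1.09 ± 0.18). Bmp2 (-1.57 ± 0.39), Tspan7 (-1.60 ± 0.31), Clec14a (-1.41 ± 0.26) and Cd300lg (-1.71 ± 0.37) were lower against CRE- KCs, as were Ets1 (-1.06 ± 0.19) and Plxnd1 (-1.06 ± 0.23), and Lifr against Tim4+ KCs (-1.20 ± 0.33). Cdh5, which KCs themselves are also known to express, was at a mean of 245 CPM in CRE-, 180.0 CPM in Tim4+ and 123 CPM in Tim4- KCs, with -0.49 ± 0.11 (adjusted p = 0.00637) and -0.99 ± 0.11 (adjusted p = 8.74e-07) against CRE- KCs, both under the fold threshold. Its adjusted p was thus under 0.05 also in Tim4+ KCs. Cd34, a sialomucin gene of endothelium and progenitors, went the other way, from a mean of 2.98 CPM in CRE- to 70.6 CPM in Tim4+ KCs (4.53 ± 0.41, adjusted p = 2.1e-07).

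The lung samples show which of the genes belong to liver preparations. In CRE- KCs, of both sexes, 31 of the 34 genes were higher than in the CRE- AMs of females and 1 was lower, where 33.3% of all genes tested were called, 20.9% higher and 12.4% lower. The median log2 fold change was 6.93, or 6.51 with the genes that had no read in CRE- AMs set to their bound. Those were Oit3, Robo4, Gata4 and Rspo3, which were at least 3637-fold, 1389-fold, 1254-fold and 50.1-fold higher in KCs when 3 reads over the 5 CRE- AM libraries are taken as the floor. Stab2 had 2 reads in all CRE- AM libraries together and a mean of 339.7 CPM in CRE- KCs, and Wnt2 had 1 read and 28.3 CPM. The genes that AMs also expressed were few. Flt1 was lower in KCs than in AMs (-2.30 ± 0.26, adjusted p = 2.13e-06), Calcrl did not differ detectably (0.04 ± 0.14, adjusted p = 0.820), and Nrp1 was higher by 0.81 ± 0.11, under the fold threshold.

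The changes in KCs were also set beside these lung levels. For the 20 genes under 1 CPM in CRE- AMs (median) the median log2 fold change of Tim4- against CRE- KCs was -1.59 (-2.06 to -0.84), and for the 11 genes at 1 to 10 CPM it was -1.52 (-1.89 to -0.56). For Nrp1, Flt1 and Calcrl, at 10 CPM or more, it was -0.77 (-1.25 to -0.66). The ranges of these classes overlapped, and a relation of the change to the lung level was not tested. In the lung the median r was 0.135 over the 190 pairs of the 20 genes tested in 15 AM samples, against -0.001 over all gene pairs. An r above 0.5 was seen in 14.2% of these pairs and in 5.08% of all gene pairs. Within the CD11b- AMs the shares were 33.2% and 19.9%, and Aqp1 (r = 0.697), Ramp2 (0.685) and Igfbp7 (0.622) had values over the 15 samples that were lower than in KCs. Most of them were near their floor there, and 15 of the 35 were too low to be tested.

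Among AMs, the Itgax-crexZeb2fl/fl fractions were compared with CRE- AMs. In the CD11b- fraction 1 of 20 genes was called, where 6.5% of all genes tested were (3.98% higher and 2.51% lower), and in the CD11b+ fraction 6 of 20 were higher and 0 lower, where 15.3% of all genes tested were called, 9.57% higher and 5.68% lower. The gene called in both was Lyve1. It was at 0.368, 0, 0.236, 0 and 0 CPM in replicates 1 to 5 of the CRE- AMs, at 2.62, 4.84, 6.80, 7.16 and 4.31 CPM in the CD11b- and at 22.03, 34.99, 22.1, 29.0 and 32.1 CPM in the CD11b+ AMs. The 3 groups did not overlap, with changes of 5.30 ± 0.50 (adjusted p = 1.58e-07) and 7.92 ± 0.48 (adjusted p = 5.15e-11). In CD11b+ AMs Lyve1 lay within the range of the CRE- KCs, while Stab2 was listed at 0 in all 5 samples.

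Of the other 5 genes called in CD11b+ AMs, Calcrl and Flt1 were already well expressed in CRE- AMs. Calcrl was at 102, 103, 81.7, 83.8 and 78.5 CPM in replicates 1 to 5 of the CRE- AMs and at 330.3, 389, 324.5, 304 and 344 CPM in the CD11b+ AMs (2.098 ± 0.117, adjusted p = 1.65e-11). Flt1 rose from 38.6 to 64.0 CPM to 109.5 to 132 CPM (1.41 ± 0.15). Pecam1 (2.11 ± 0.49), Esam (1.71 ± 0.36) and Flt4 (4.05 ± 1.04) were called at low levels, of at most 8.40, 4.82 and 2.27 CPM. The remaining 14 genes, among them Kdr at 0.808 to 1.55 CPM in the CD11b+ and 0.677 to 2.79 CPM in the CRE- AMs, were not called. Nrp1 was lower in both fractions (-0.55 ± 0.10 and -0.72 ± 0.10) without reaching the fold threshold. Neutrophil genes summed to 7059 to 8928 CPM in the CD11b+ and 6.85 to 10.02 CPM in the CRE- AMs, and the hepatocyte list, of which 1 gene could be tested in AMs, to 7136 to 7528 against 3026 to 3614 CPM. In the CD11b- AMs the neutrophil genes were at 726 to 2280 CPM. Monocyte genes were at 34090 to 45750 CPM in the CD11b+ and 18010 to 28280 CPM in the CRE- AMs without overlap, with 5 of 7 called higher. That list shares Chil3 with the list of AM genes, so that its sum does not measure monocytes alone. The AM list summed to 37510 to 49220 CPM in the CD11b+ and 20740 to 31160 CPM in the CRE- AMs. The part of these lists in the endothelial values of the AMs was not tested.

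The change with CRE was set between tissues in a single fit over all 33 samples, in which tissue and cre line cannot be told apart. As the mean change of both CRE+ KC fractions less that of both CRE+ AM fractions, 5 of the 34 genes were lower and none higher, where 8.15% of all genes tested were called, 4.65% lower and 3.5% higher. They were Lyve1 (-6.87 ± 0.58, adjusted p = 6.99e-11), Calcrl (-1.53 ± 0.21, adjusted p = 1.21e-06), Esam (-1.48 ± 0.42, adjusted p = 0.0106), Pecam1 (-1.42 ± 0.41, adjusted p = 0.0107) and Flt1 (-1.09 ± 0.31, adjusted p = 0.0117). The KC side averages fractions whose medians over the list had opposite signs, 0.61 (Tim4+) and -1.53 (Tim4-) against CRE- KCs. For Lyve1 the log2 fold changes were 0.68 and -1.22 in these fractions and 5.30 and 7.92 in the CD11b- and CD11b+ AMs. Its value thus came mostly from the AMs, and its median in CRE- AMs was 0. For the genes that were listed at 0 in most AM samples this contrast between tissues could not be estimated usefully.

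**Figure D5:**
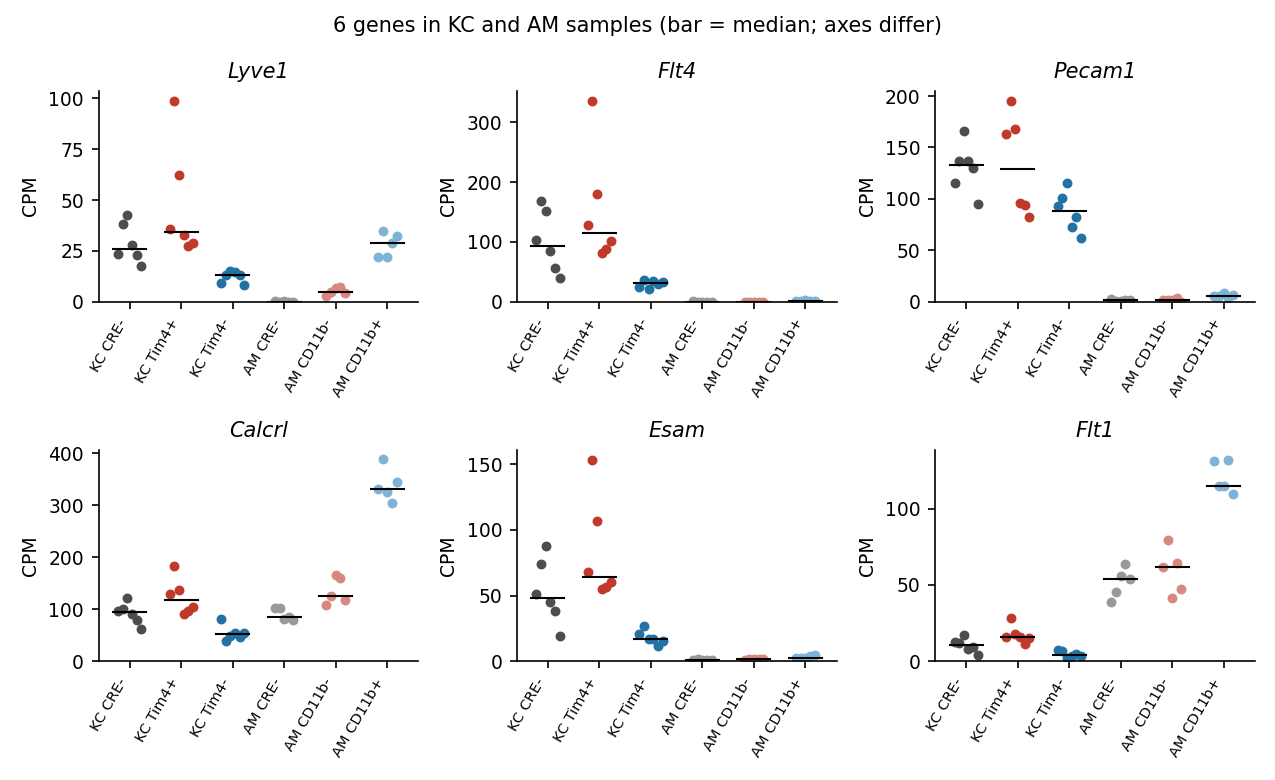
CPM (y axes, from 0, with a different scale for each gene) of the 6 endothelial genes called in CD11b+ CRE+ AMs, by sample in all 6 groups (x axes), with bars at the medians. Calcrl and Flt1 were higher in CD11b+ AMs than in any KC sample, Lyve1 reached 22.03 to 34.99 CPM there, and Pecam1, Esam and Flt4 were at most at 8.40 CPM in AMs.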

How the data were processed

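Raw read counts per gene symbol were deposited for 33 libraries, with no normalization by the authors. Per the submitters' processing notes, reads were handled with Trimmomatic 0.35, FastQC 0.11.4, TopHat2 2.1.0 and SAMtools 0.1.18 on mm10, and counted with HTSeq-count, whose strand setting, annotation and version are not given in the sources used here. Without strand, a gene and its antisense partner cannot be told apart. The 5 tally rows per library (no feature and the like, no feature being 4.52% to 8.90%) were left out, leaving 24421 genes.

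Counts were fitted with edgeR 4.0.16 (TMM factors, filterByExpr, glmQLFit, glmQLFTest) in R 4.3.3 over the 18 KC samples, the 15 AM samples, the 11 CRE- samples or all 33, with Benjamini-Hochberg adjustment over all genes tested. CPM are counts per 1000000 reads on genes. Covariation used log2 CPM with TMM factors and a prior count of 0.5, less the group mean. Scripts were tested on simulated data. The labels number the replicates but do not say which came from the same mouse. Same-numbered Tim4- and Tim4+ samples deviated together (r of 0.112 to 0.250 in 6 of 6 pairs). The main fits did not pair these samples, and the replicate number entered as a block only among the alternatives. In none of the other 5 pairs of groups checked did every pair of samples exceed 0.1 (CD11b- against CD11b+ AMs was not checked). Libraries were not duplicates, with a lowest chi-square per gene of 12.8 over 75 replicate pairs. Where samples do not come from separate animals, p-values measure only the spread between samples. Exon lengths were taken from GENCODE M21 (GRCm38). Alternatives were DESeq2 1.42.0, limma 3.58.1 (voom), other size factors and filters, the replicate block, a sex covariate and leaving out each library. Genes of the list with a mean of at least 5 CPM over the KC samples were described by level, fold change and test, the others in short. Of the further endothelial genes, up to 10 called ones with the highest level and Cdh5 were named, and outside the lists the 10 genes that followed the list most closely. The genes, lists and tests were chosen with earlier results of these data known.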

Additional observations from a re-analysis of the deposited data

Results flagged for a closer look

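For 6 of 105 groups of values examined (33 genes in 3 KC groups and the summed level in 6 groups), the highest sample stood apart from the others by Dixon's gap test, and chance gives about 1 in 20, or 5.2. In Tim4+ KCs replicate 2 stood apart for Flt1 (28.5 CPM) and Stab2 (586 CPM), in CRE- KCs replicate 3 for Ushbp1 (29.0 CPM), and in Tim4- KCs replicate 2 for Gpr182 (78.9 CPM) and replicate 1, the shallowest library, for Adgrl4 (42.3 CPM). In CD11b+ AMs the summed level of replicate 2 was 635 CPM. Replicate 3 of the CRE-, replicate 2 of the Tim4+ and replicate 2 of the Tim4- KCs were also the samples with the highest summed level in their groups. For 5 genes the change with CRE differed between KCs and AMs in edgeR's test of the difference, Lyve1 by -6.87, Calcrl by -1.53, Esam by -1.48, Pecam1 by -1.42 and Flt1 by -1.09 on the log2 scale.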

How the results depend on the processing

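A sex covariate changed none of the 3 KC counts (0, 28 and 32). With replicates 5 and 6 alone (chosen after seeing the data), 5 genes were called against CRE- and 18 against Tim4+ KCs, and 1 gene, Oit3, between Tim4+ and CRE- KCs, where fewer samples enter the fit. Without any cut-off on the fold, 33 genes were lower against CRE- KCs. With the replicate block 28, 31 and 0 genes were called for Tim4- against CRE-, Tim4- against Tim4+ and Tim4+ against CRE- KCs, 32 between CRE- KCs and AMs, 1 and 6 in the AM fractions and 6 between tissues, and the block moved no count by over 1.5 times. The median r of 0.778 moved to 0.662 without the 2 farthest samples, an omission also chosen after seeing the data. Leaving out each library gave 0 to 1 genes (Tim4+ against CRE- KCs), 27 to 29 and 30 to 32 (Tim4- against CRE- and Tim4+ KCs), 31 to 32 (KCs against AMs), 1 to 2 and 6 to 7 (CD11b- and CD11b+ AMs), 5 to 7 (between tissues) and a median r of 0.731 to 0.822. The count for CD11b- AMs became 2 without their replicate 3. A filter of at least 10 reads in every sample left 14 genes between CRE- KCs and AMs, of which 12 were called, and 5 in AMs, of which 0 were called in the CD11b- and 3 in the CD11b+ fraction. Between tissues it gave 3 genes, limma-voom 3 and DESeq2 10, against 5 in edgeR. For CD11b- AMs DESeq2 called 2 and the test without a fold cut-off 3. The cause of these differences in tool was not tested. Reversals concerned genes near 0 in Tim4+ against CRE- KCs. Pecam1 turned positive with RLE factors (0.00043), DESeq2 (0.00051), the 10-read filter (0.0057) and replicates 1 to 4 (0.11), and ranged from -0.12 to 0.12 when single libraries were left out. Over the same omissions Erg ranged from -0.076 to 0.32, Stab2 from -0.27 to 0.048 and Wnt2 from -0.063 to 0.50. Erg was at -0.18 with replicates 5 and 6. Of the other alternatives for single genes, 2785 kept direction and side of the threshold, 50 lost and 10 gained the call. Depth limited Rspo3 and Sparcl1 in KCs and most of the genes in AMs.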
